A study of Mus musculus with 9 samples.

Results

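Solute carriers are the membrane proteins that move sugars, amino acids, ions, metals, vitamins and metabolites into and out of cells and organelles. They were examined here in mouse tail skin after surgical ablation of its lymphatics. The set was chosen by symbol: every gene whose annotated name starts with Slc, a family number, the letter a and a member number, or with Slco. The rule took 161 of the 10554 genes that the array annotation names, represented by 260 of the 42624 features. Of these, 124 genes (190 features) had at least one clone with a value on all 9 arrays and entered the tests, beside 8644 genes in all, and 37 had none. The rule also takes 3 genes that are not carriers by their known role, namely Slc9a3r1 and Slc9a3r2, scaffold proteins that bind ion exchangers, and Slc7a6os, a gene on the strand opposite Slc7a6.

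The animals were female hairless SKH-1 mice, 3 weeks old, in 3 states. In lymphedema mice the tail skin was incised around its circumference and the lymphatic trunks were cauterized, sham mice had the incision and the methylene blue injection without cautery, and normal mice had no surgery. Distal tail skin was taken on day 14, away from the wound, and RNA of 3 mice was combined in each of the 3 pools of a state, so that n = 3 arrays everywhere and the spread between single animals cannot be seen. Each pool was hybridized once to a 2-color cDNA array against RNA of whole embryonic day 17.5 embryos, which served all arrays as a common reference.

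Solute carriers are grouped into families by sequence, and most work as uniporters, as cotransporters driven by the sodium or proton gradient, or as exchangers. Members of the mitochondrial carrier family sit in the inner mitochondrial membrane, whereas zinc carriers fall into a family that brings zinc into the cytosol and one that removes it. In skin, carriers supply the dividing keratinocytes with glucose, amino acids and fatty acids, and inflammatory cells bring their own set for amino acids, nucleosides and metals.

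The deposited values are log ratios, read as log2 since the base is not stated, and a positive deposited value was read as more RNA in the embryo. The sign was turned for all values below except the medians as deposited, so that a positive one stands for more RNA in tail skin. The direction read for the deposited values is opposite to the dyes of the sample labels, which place tail skin in Cy5, whereas the methods of the study place it in Cy3. It was read from 17 genes typical of embryos and 12 genes of adult skin. Their array medians as deposited ran from 3.42 to 4.10 and from -2.67 to -1.97. On each array 16 or 17 of the embryo genes and 9 or 10 of the skin genes lay on the side so read, and the others lay opposite. If the direction were wrong, every sign below would turn. Each array was centered on its median (-0.121 to -0.002 as deposited). Between 1.34% and 12.6% of values were missing on an array, and 186 features had values on all normal arrays and lymphedema array 1 but on none of the other 5 arrays, more than for any other division of the arrays into 4 and 5 (at most 45). Within states, the median SD of the 124 genes was 0.23 in lymphedema, 0.34 in sham and 0.18 in normal skin, against 0.20, 0.32 and 0.17 over all genes tested.

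The first comparison asked which carriers differed between lymphedema and normal skin. Few did. In limma with Benjamini-Hochberg adjustment over all genes at 0.05, 2 of the 124 genes were higher in lymphedema (1.61%, against 2.83% of all genes tested) and 3 were lower (2.42%, against 0.602%). Slc25a45 and Slc9a3r2 rose, and Slc7a3, Slc22a4 and Slc2a13 fell. The median difference over the 124 genes was 0.05, against 0.10 over all genes. Of the 124 genes 74 had a positive difference, against 5354 of all 8644 genes tested. The plot of the 5 genes by array shows how far the states lay apart, and since whole skin was measured, fewer cells of a type and less RNA per cell cannot be told apart in any of these values.

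**Figure D1:**
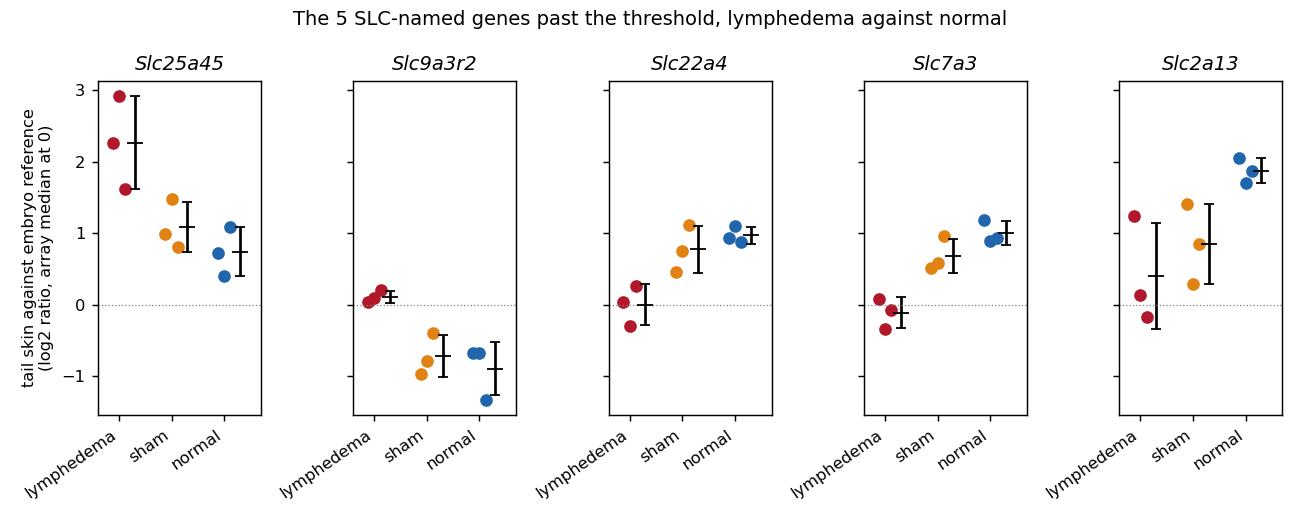
Each panel plots 1 gene; the y axis is the log2 ratio of tail skin to the embryo reference after centering, points are the 3 arrays of each state, and the bar beside them is the mean ± SD (n = 3). For all 5 genes the lymphedema points lie wholly above or wholly below the normal points, and in Slc2a13 lymphedema array 1 (1.25) stands apart from the other lymphedema arrays (0.13 and -0.17).

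Slc25a45, a member of the mitochondrial carrier family, had ratios of 2.27, 2.92 and 1.62 on the lymphedema arrays, 0.99, 1.49 and 0.81 on the sham arrays, and 0.73, 0.41 and 1.09 on the normal arrays. The lymphedema arrays lay above every array of both other states. The difference from normal skin was 1.53 ± 0.31 (SE; a 2.88-fold increase; adjusted p = 0.0288, limma).

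Slc9a3r2 encodes a PDZ-domain scaffold that tethers sodium/proton exchangers and other membrane proteins to the actin cytoskeleton. Its ratios were 0.04, 0.10 and 0.20 in lymphedema, -0.97, -0.79 and -0.39 in sham and -0.68, -0.67 and -1.32 in normal skin. Lymphedema arrays were again above the arrays of the other states, whose ranges overlapped each other. The difference from normal skin was 1.01 ± 0.22 (adjusted p = 0.0367, limma).

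Slc7a3, a transporter of arginine and other cationic amino acids, had the smallest adjusted p among the 124 genes. Its ratios were 0.08, -0.34 and -0.07 in lymphedema, 0.52, 0.59 and 0.96 in sham and 1.19, 0.89 and 0.94 in normal skin, so that sham skin lay between and overlapped normal skin only. It fell by 1.12 ± 0.19 (2.17-fold; adjusted p = 0.0196, limma). Both of its features carry the same clone accession, and they differed in size: -1.55 for one (adjusted p = 0.0212 over all features, limma) and -0.68 for the other (adjusted p = 0.137).

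Slc22a4 encodes a carrier of organic cations, including ergothioneine. It had 0.04, -0.30 and 0.27 in lymphedema, 0.46, 0.76 and 1.12 in sham and 0.94, 1.10 and 0.88 in normal skin. Lymphedema arrays lay below all others. It fell by 0.97 ± 0.21 relative to normal skin (1.96-fold; adjusted p = 0.0367, limma).

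Slc2a13, a proton-coupled carrier of myo-inositol, had the largest fall of the 124 genes, 1.48 ± 0.36 (2.78-fold; adjusted p = 0.0474, limma). The arrays gave 1.25, 0.13 and -0.17 in lymphedema, 1.41, 0.29 and 0.86 in sham and 2.06, 1.71 and 1.87 in normal skin. Both operated states lay below normal skin without overlap, and the lymphedema arrays were spread more widely (SD 0.75) than the normal arrays (SD 0.18).

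These calls depended on every array of the 2 states: without any one of the lymphedema or normal arrays, 0 or 1 of the 124 genes passed in each direction, whereas 3 were higher and 5 lower without sham array 1, and 4 and 6 without sham array 3. Calls over all genes changed likewise. Without any one of the lymphedema or normal arrays, 0.104% to 0.74% of all genes were higher and 0.0231% to 0.139% lower. The shares were 3.92% and 1.19% without sham array 1, and 5.6% and 1.61% without sham array 3. Lymphedema array 1, which shares its pattern of missing values with the normal arrays, differed from their mean by 1.53 for Slc25a45, 0.93 for Slc9a3r2, -0.92 for Slc7a3, -0.93 for Slc22a4 and -0.63 for Slc2a13, and lymphedema arrays 2 and 3 differed from the sham mean by 1.18, 0.87, -0.89, -0.79 and -0.87 for the same genes in that order; with those sets of arrays as a block no gene of the 8644 passed.

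The sequence before the start of the genes that carry these calls is given so that their promoters can be read beside the values. RefSeq's table (GRCm38.p6) matched 4 of the 5 genes. The 250 bases before the start are printed for the 3 carriers among them, Slc25a45 (chr19:5877572-5877821, plus strand), Slc22a4 (chr11:54028105-54028354, minus strand) and Slc2a13 (chr15:91573262-91573511, minus strand), 5′ to 3′ along the gene. Capitals mark matches on either strand to ACGTG, the core of hypoxia response elements, or to TGCNCNC. The latter is a looser form of TGCRCNC (R is A or G), the core of metal response elements.
Slc25a45: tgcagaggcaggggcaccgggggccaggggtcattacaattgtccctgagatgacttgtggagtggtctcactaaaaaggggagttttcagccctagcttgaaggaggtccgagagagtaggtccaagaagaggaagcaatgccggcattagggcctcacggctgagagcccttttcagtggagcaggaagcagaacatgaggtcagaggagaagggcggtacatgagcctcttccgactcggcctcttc
Slc22a4: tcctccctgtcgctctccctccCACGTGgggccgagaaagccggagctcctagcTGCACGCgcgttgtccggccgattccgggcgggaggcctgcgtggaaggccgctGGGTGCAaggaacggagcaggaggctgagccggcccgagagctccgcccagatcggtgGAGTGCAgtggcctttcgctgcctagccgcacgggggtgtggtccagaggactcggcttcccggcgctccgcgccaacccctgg
Slc2a13: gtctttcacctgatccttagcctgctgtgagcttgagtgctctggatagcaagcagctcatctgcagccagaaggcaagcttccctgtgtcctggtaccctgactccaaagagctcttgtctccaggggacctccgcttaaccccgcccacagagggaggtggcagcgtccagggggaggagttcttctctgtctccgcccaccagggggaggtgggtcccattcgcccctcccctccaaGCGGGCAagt
Slc25a45 had no match. Slc22a4 had 2 matches to ACGTG, which are the 2 strands of one CACGTG, and 3 to TGCNCNC. Slc2a13 had 1 to TGCNCNC, with C where the core of metal response elements has A or G. None of the 3 held TGATGNAA, the core of amino acid response elements. Over all 32851 promoters of the table, 16.57% held ACGTG, 44.41% TGCNCNC and 3.45% TGATGNAA in the same window, so the matches are common and are given only as a description.

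Looser rules were counted in the same way. The 3 arrays of the states did not overlap for 24 genes higher in lymphedema (19.4%, against 23.6% of all genes) and 17 lower (13.7%, against 10.2%). At an unadjusted p under 0.05 in limma, 15 were higher (12.1%, against 14.8%) and 10 lower (8.06%, against 5.71%). SAM at a false discovery rate of 5%, the test named in the study's methods and rewritten here, called 21 higher (16.9%, against 18.8% of all genes) and 6 lower (4.84%, against 2.42%). The 6 lower were Slc7a3, Slc22a4, Slc2a13, Slc12a4, Slc16a11 and Slc52a3. Of the genes described here, the higher were Slc25a45, Slc9a3r2, Slc1a3, Slc7a4, Slc7a7, Slc38a1, Slc38a4, Slc43a3, Slc25a3, Slc25a4, Slc25a5, Slc2a4, Slc50a1, Slc16a1, Slc16a3, Slc22a12 and Slc39a8. In the classes below, passing refers to limma. The shares of higher carriers lay slightly below those of all genes and the shares of lower carriers above them under each rule; this is a description of the set and was not tested.

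**Figure D2:**
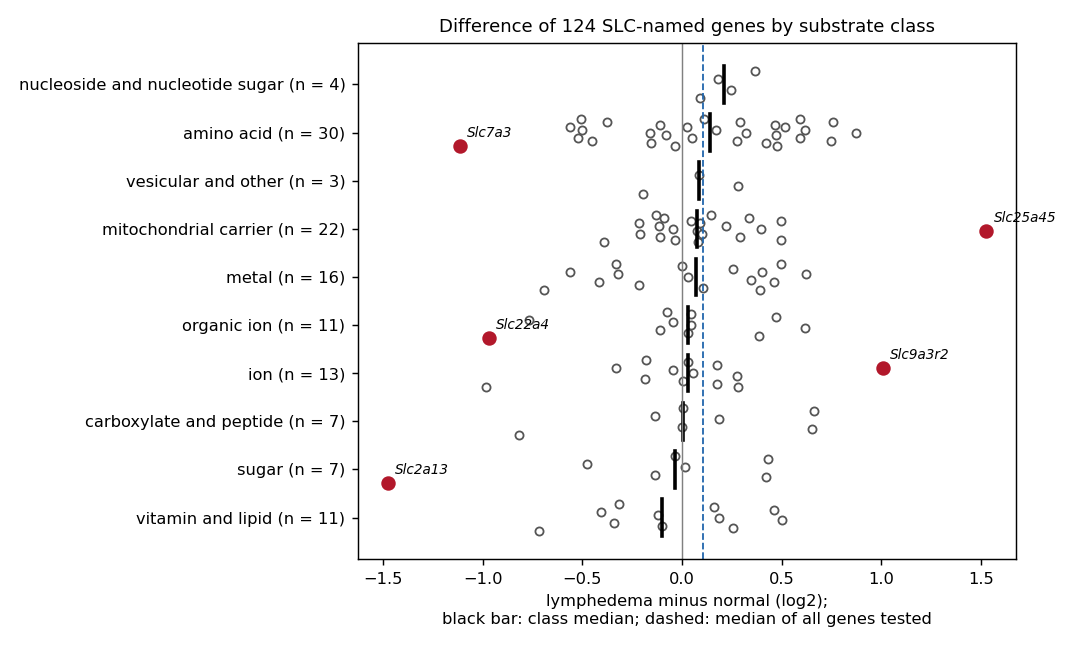
The x axis is the difference of lymphedema minus normal skin (log2), 1 point per gene in rows by substrate class; filled points passed the limma threshold, black bars are class medians and the dashed line is the median of all genes tested (0.10). Class medians run from -0.10 in vitamin and lipid carriers to 0.21 in nucleoside and nucleotide sugar carriers, and every class of 7 or more genes has members on both sides of 0.

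Amino acid carriers were the largest class, with 30 genes tested. Their median difference was 0.14, 18 of 30 were positive (against 5354 of all 8644 genes tested), and 1 passed, Slc7a3. Next to the threshold stood several carriers with higher values in lymphedema. Slc43a3, a carrier of purine nucleobases placed here by its family name, had -0.56, -0.93 and -0.69 in lymphedema and -2.07, -1.66 and -1.06 in normal skin, a difference of 0.87 ± 0.24 (adjusted p = 0.0777, limma). Slc7a7, the light chain of the exchanger that releases cationic amino acids and is prominent in macrophages, had -0.85, -0.34 and -0.75 against -1.79, -1.23 and -1.15, a difference of 0.75 ± 0.22 (adjusted p = 0.0857). Slc7a4, an orphan relative of the cationic carriers, differed by 0.62 ± 0.18 (adjusted p = 0.0836). In these genes the lymphedema and normal arrays did not overlap, but the adjusted p missed the threshold. Against the sham mean, the mean of lymphedema arrays 2 and 3 differed less, by 0.11 for Slc43a3, 0.27 for Slc7a7 and 0.28 for Slc7a4.

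Slc1a3, a glial-type glutamate and aspartate carrier, differed by 0.75 ± 0.25 (adjusted p = 0.118, limma), and its 3 clones differed by 1.29, 0.55 and 0.42, of which the largest passed over all features (adjusted p = 0.0498). Slc38a1, a sodium-coupled carrier of glutamine, had one clone at 1.08 (adjusted p = 0.0469) and one at 0.10, so that its mean of 0.59 ± 0.16 (adjusted p = 0.0746) stands for 2 unlike clones. Slc38a2, a glutamine and alanine carrier that cells raise when amino acids are short, differed by 0.27 ± 0.17 (adjusted p = 0.393), and Slc1a5, the exchanger of glutamine and other neutral amino acids, by 0.48 ± 0.22 (adjusted p = 0.257). Slc3a2, the heavy chain that carries several light chains to the cell surface, had -0.46, -0.54 and -0.13 in lymphedema and 0.44, 0.06 and -0.13 in normal skin, a difference of -0.50 ± 0.22 (adjusted p = 0.229), with clones from -1.20 to 0.10. Glutamine carriers and the shared heavy chain thus had differences of opposite sign, none past the threshold.

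**Figure D3:**
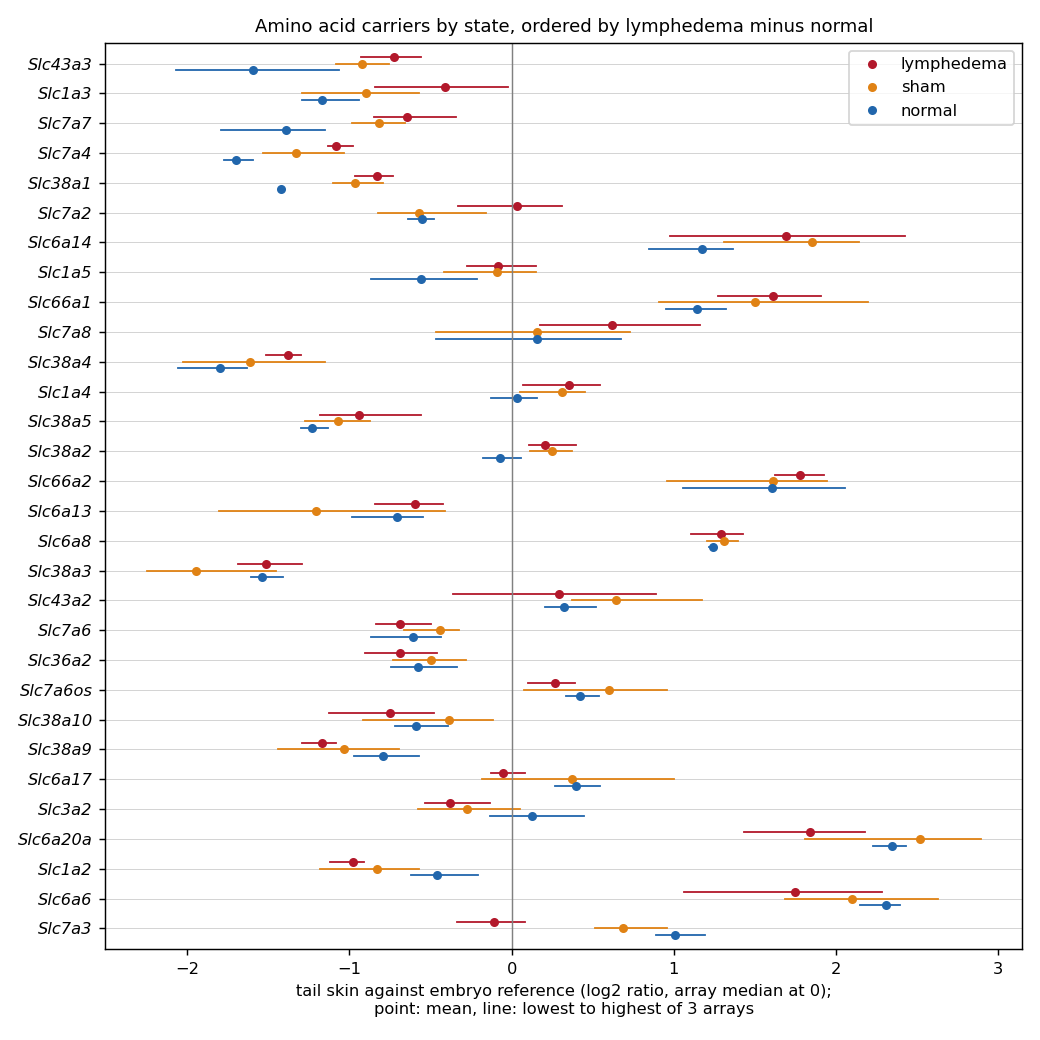
The x axis is the log2 ratio of tail skin to the embryo reference and each row is 1 of 30 amino acid carriers, with the mean (point) and the lowest to highest of 3 arrays (line) for lymphedema, sham and normal skin from top to bottom. Rows run from Slc43a3 (difference of lymphedema minus normal skin 0.87) at the top to Slc7a3 (-1.12) at the bottom, and in most rows the lines of the states overlap.

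Mitochondrial carriers (22 genes) had a median difference of 0.08, with 13 positive (against 5354 of all 8644 genes tested). Apart from Slc25a45 none passed. Slc25a3, the phosphate carrier, differed by 0.50 ± 0.19, Slc25a5, an ATP/ADP exchanger of most tissues, by 0.50 ± 0.19, and Slc25a4, the ATP/ADP exchanger of muscle and heart, by 0.39 ± 0.18 (adjusted p = 0.178, 0.176 and 0.231 in that order, limma). Slc25a4 was measured by 9 clones, all positive, from 0.05 to 0.75. Of 8 markers of skeletal muscle 0 passed, and their median difference was 0.28. Slc25a20, which carries fatty acyl-carnitines, differed by -0.12 ± 0.19 (adjusted p = 0.778), and Slc25a37, the iron importer mitoferrin, by 0.14 ± 0.17 (adjusted p = 0.677, with a negative difference after quantile normalization).

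Of 7 sugar carriers 1 passed, Slc2a13. Slc2a1, the basal glucose transporter of many cells, had 0.19, 0.41 and 0.52 in lymphedema, -0.05, -0.07 and 1.54 in sham and 1.04, 0.66 and 0.87 in normal skin. Lymphedema lay below normal skin without overlap, but the difference of -0.48 ± 0.36 did not pass (adjusted p = 0.486, limma). Slc2a4, the insulin-responsive transporter of muscle and fat, differed by 0.42 ± 0.18 (adjusted p = 0.226), and Slc50a1, a sugar carrier of internal membranes, by 0.43 ± 0.21 (adjusted p = 0.272). Monocarboxylate carriers, which belong to the class of carboxylate and peptide carriers, likewise lay on both sides of 0. The lactate carriers among them were positive. Slc16a1 differed by 0.65 ± 0.26 (adjusted p = 0.189, limma) and Slc16a3, the lactate exporter of glycolytic cells, by 0.66 ± 0.43 (adjusted p = 0.417). Slc16a11, a related monocarboxylate carrier, differed by -0.82 ± 0.26 (adjusted p = 0.109). Both Slc16a3 and Slc2a1 were spread widely over the sham arrays, from -1.45 to 0.70 and from -0.07 to 1.54.

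None of 16 metal carriers passed, and 10 had positive differences (against 5354 of all 8644 genes tested). Slc39a4, a zinc importer whose human counterpart is mutated in acrodermatitis enteropathica, differed by -0.69 ± 0.30 (adjusted p = 0.225, limma), and Slc31a1, the copper importer, by -0.56 ± 0.18 (adjusted p = 0.105). Slc39a8, an importer of zinc and manganese, differed by 0.50 ± 0.18 (adjusted p = 0.160), with clones at 1.06 and -0.07. Slc39a14, a zinc and iron importer induced in liver by inflammation, differed by -0.32 ± 0.42 (adjusted p = 0.714), and Slc40a1, the iron exporter ferroportin, by 0.11 ± 0.25 (adjusted p = 0.856, and -0.02 without lymphedema array 1). Zinc importers thus included the lowest as well as one of the higher values of the class.

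Among 13 genes of the ion class, Slc9a3r2 alone passed, and it is no carrier. Slc12a4, a potassium-chloride cotransporter, had -0.34, -0.94 and -0.28 in lymphedema, -0.59, 0.01 and 0.55 in sham and 0.35, 0.37 and 0.68 in normal skin, a difference of -0.98 ± 0.28 (adjusted p = 0.0826, limma). Its lymphedema and normal arrays lay apart, with the sham arrays across both. Slc12a2, the sodium-potassium-chloride cotransporter of secretory cells, differed by 0.18 ± 0.20 over 6 clones (adjusted p = 0.657), and Slc20a1, a phosphate carrier, by 0.27 ± 0.24 (adjusted p = 0.548), and either sign turned under an alternative given at the end.

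Vitamin and lipid carriers (11 genes) had the lowest class median, -0.10, with none past the threshold. Slc52a3, a riboflavin carrier, had 0.74, 0.86 and 0.86 in lymphedema and 1.69, 1.67 and 1.25 in normal skin. The difference was -0.72 ± 0.18 (adjusted p = 0.0559, limma), the first value outside the threshold, as Slc2a13 was the last inside it, and both of its clones were negative. In the class of organic ion carriers (11 genes), Slc22a4 passed, Slc22a12, a urate exchanger of the kidney, differed by 0.62 ± 0.22 (adjusted p = 0.143), and Slco2a1, the prostaglandin transporter, by 0.39 ± 0.23 (adjusted p = 0.378). The 4 nucleoside and nucleotide sugar carriers had positive differences of 0.09 to 0.37, and the 3 genes left over had -0.19 to 0.28. Slc5a4b was left over only because of the letter that ends its symbol, since the class list placed Slc5a4 with the sugar carriers.

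Cell type markers moved in the same comparison, and their part in the carriers' differences was not tested. Of 13 macrophage and monocyte markers 12 were positive and 6 passed, and the list's array medians were 0.14 to 0.56 in lymphedema, -0.51 to 0.20 in sham and -0.56 to -0.33 in normal skin. Of 8 neutrophil markers 7 were positive and 4 passed, with array medians of 1.33 to 1.72, -0.81 to 1.04 and -1.41 to -1.12 in the same order of states. Sham array 3 stood apart here, at 1.04 against -0.81 and -0.34 on sham arrays 1 and 2. Keratinocyte markers had a median difference of 0.10, with 0 of 7 past the threshold. Blood endothelium (1 of 5) and fibroblasts (1 of 7) each had 1 marker past it, with median differences of 0.67 and 0.66. Of 6 markers of hair follicle and sebaceous gland 4 were positive and 1 passed, Krtap13, with a difference of -1.73 (adjusted p = 0.00593, limma).

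Other transport genes, listed beside the carriers, gave no call in limma. The 11 solute carriers that keep other symbols, such as Mtch1, Sfxn3 and Ucp1, had a median difference of 0.11. All 7 partners of transporters had positive differences (against 5354 of all 8644 genes tested), with a median of 0.43. Among them Bsg, the chaperone of lactate carriers, differed by 0.46 and the transferrin receptor Tfrc by 0.20. The median was 0.17 over 7 ion pumps and 0.16 over 7 aquaporins, of which the water channel Aqp1 differed by 1.10 (adjusted p = 0.0997).

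The second comparison, sham against normal skin, asked how carriers differed after the sham operation, that is, the incision with the methylene blue injection. The 186 features described above had values on all normal arrays and on no sham array. These 2 states thus lie on opposite sides of that division of the arrays. No gene of the 124 passed in limma in either direction (0% of all genes too), and SAM called none of the 124 (against 0.243% of all genes higher and 0% lower). At an unadjusted p under 0.05, 5 were higher (4.03%, against 5.54% of all genes) and 3 lower (2.42%, against 2.38%). The arrays did not overlap for 11 genes higher in sham (8.87%, against 9.72%) and 4 lower (3.23%, against 3.09%), and the median difference was 0.07, against 0.06 over all genes.

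Among the 124 genes the zinc importer Slc39a4 had the largest difference, -1.36 ± 0.30 (adjusted p = 0.216, limma). Its arrays gave -1.35, -1.98 and -0.67 in sham skin and 0.30, -0.09 and -0.14 in normal skin, and without sham array 3 the difference was -1.69 (adjusted p = 0.0337). Slc39a5, another zinc importer, had -0.64, -1.17 and -0.87 against 0.25, -0.16 and -0.50, a difference of -0.76 ± 0.22 (adjusted p = 0.384). In both genes sham lay below normal skin without overlap. Slc2a13 differed by -1.03 ± 0.36 (adjusted p = 0.496; 0.24 with the sets of arrays that share missing values as a block), Slc7a7 by 0.58 ± 0.22 (adjusted p = 0.511), Slco2a1 by 0.56 ± 0.23 (adjusted p = 0.557) and Slc38a1 by 0.46 ± 0.16 (adjusted p = 0.499; -0.0377 with 1 clone per gene).

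The third comparison, lymphedema against sham skin, set the ablation beside the sham operation. Again 0 of the 124 genes passed in limma in either direction, against 0.0116% of all genes higher and 0.0116% lower. SAM called none of the 124, against 0.0347% of all genes higher and 0.0116% lower. At an unadjusted p under 0.05, 7 were higher (5.65%, against 4.59%) and 8 lower (6.45%, against 2.85%). The arrays did not overlap for 6 genes higher (4.84%, against 6.63%) and 6 lower (4.84%, against 3.69%), and the median difference was 0.03, against 0.06 over all genes. The result over all genes depended on sham array 3. Without it, limma called 0.891% of all genes higher and 0.22% lower, and of the 124 genes 0 were higher and 1 was lower.

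Slc31a1, the copper importer, had the smallest adjusted p of the 124 genes here (0.375, limma). Its ratios were -0.40, -0.61 and -0.21 in lymphedema, 0.59, 0.40 and 0.21 in sham and 0.08, 0.20 and 0.19 in normal skin, so that lymphedema lay below both other states, and the difference from sham was -0.81 ± 0.18 (without sham array 3, -0.90, adjusted p = 0.0442). Slc5a6, which brings in biotin and pantothenate, had -0.10, -0.90 and -0.28 in lymphedema against 0.24, 0.38 and 0.21 in sham, a difference of -0.70 ± 0.22 (adjusted p = 0.505). Of the genes that passed against normal skin, Slc25a45 differed from sham by 1.18 ± 0.31 (adjusted p = 0.466), Slc9a3r2 by 0.83 ± 0.22 (adjusted p = 0.466), Slc7a3 by -0.80 ± 0.19 (adjusted p = 0.442), Slc22a4 by -0.77 ± 0.21 (adjusted p = 0.470) and Slc2a13 by -0.45 ± 0.36 (adjusted p = 0.794). The comparisons share arrays, so that these values are not independent of those above.

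Against the embryo reference, carriers of adult tail skin spread widely. Of the 124 genes 34 lay above the array median on all 9 arrays (27.4%, against 23.2% of all genes) and 35 below it (28.2%, against 30.5%). The ratio compares 2 tissues for 1 gene and is no measure of the amount of RNA between genes. By class, medians ran from 1.00 in vitamin and lipid carriers and 0.52 in sugar carriers to -0.30 in the ion class, -0.31 in amino acid carriers and -0.43 in mitochondrial carriers, against -0.06 over all genes.

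**Figure D4:**
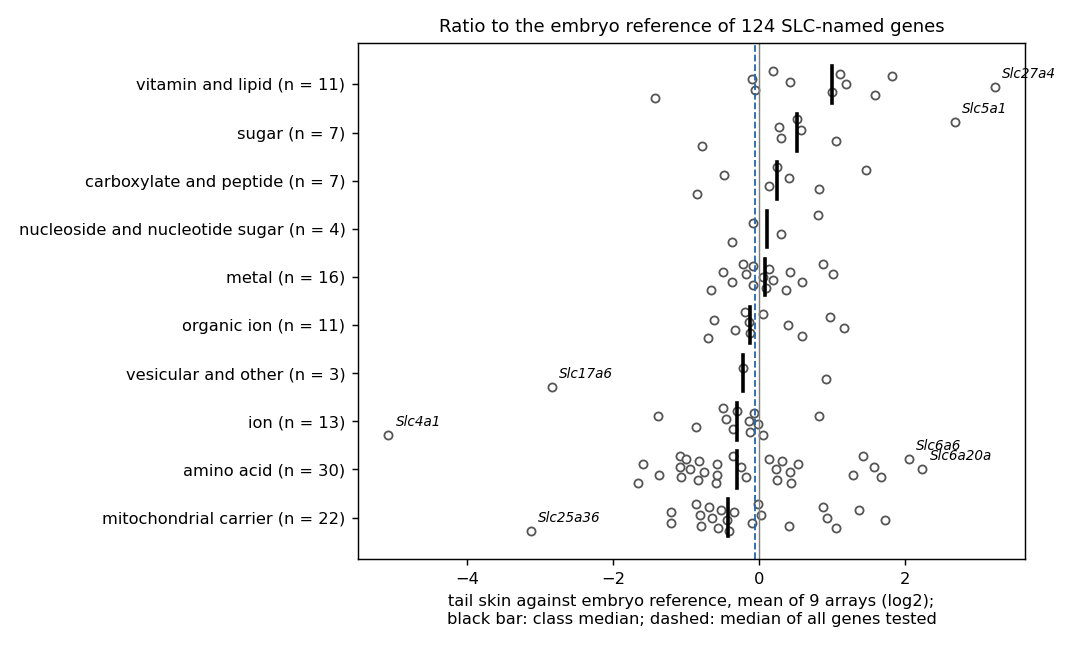
The x axis is the log2 ratio of tail skin to the embryo reference, averaged over 9 arrays, 1 point per gene in rows by class; black bars are class medians and the dashed line is the median of all genes tested (-0.06). Named points lie beyond 2 either way, from Slc4a1 at -5.08 to Slc27a4 at 3.22.

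Slc27a4, a fatty acid transport protein needed for the skin barrier in mice, had the highest ratio of the 124 genes, 3.22 ± 0.54 (SD over 9 arrays; 9.34-fold above the embryo), with 2.49 to 3.57 in lymphedema, 2.45 to 4.13 in sham and 3.02 to 3.54 in normal skin. Slc5a1, a sodium-coupled glucose carrier, followed at 2.68 ± 0.51, Slc6a20a, a carrier of proline and other imino acids, at 2.24 ± 0.48, and Slc6a6, the taurine carrier, at 2.05 ± 0.47. Neighbors in this order differed by about the SD over arrays or by less. Slc27a3, a relative of Slc27a4, stood at 1.83 ± 0.32 and Slc25a1, the mitochondrial citrate exporter that feeds lipid synthesis, at 1.73 ± 0.37. Slc5a1 had 3.60, 3.35 and 2.60 on the sham arrays, against 2.28, 2.19 and 2.81 on the normal arrays, a difference of 0.76 ± 0.28 (adjusted p = 0.499, limma).

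At the low end, Slc4a1, the chloride/bicarbonate exchanger of red cells, had -5.08 ± 0.23, or 33.8-fold less than in the embryo, and its 9 arrays lay between -5.42 and -4.76. All 5 red cell markers were likewise below the embryo on every array. Slc17a6, a vesicular glutamate carrier of neurons, stood at -2.84 ± 0.54. Slc25a36, a mitochondrial pyrimidine nucleotide carrier, had a mean of -3.13, but its arrays ran from -4.28 to -1.98 and the SD was about 1 in each state (1.04 in lymphedema, 1.05 in sham and 0.90 in normal skin), so that its place in the order is uncertain. The glutamine carrier Slc38a3 (-1.67 ± 0.32) and Slc38a4, a carrier of neutral and cationic amino acids prominent in liver (-1.60 ± 0.31), did not differ beyond their spread.

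Clones of 1 gene agreed only in part. Of 39 genes with 2 or more clones, 15 had clones of opposite sign in lymphedema against normal skin and 14 had clones on both sides of the embryo, and the median range between clones was 0.65. Slc25a37 had the widest range, from -1.84 to 0.80, whereas the 2 clones of Slc6a6 lay at 2.02 and 2.09 and those of Slc52a3 at 1.15 and 1.23.

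Of the 37 genes with no clone on all arrays, 31 had 2 or more values in both lymphedema and normal skin; 3 of these lay higher in lymphedema without overlap (9.68%, against 14.3% of all such genes) and 8 lower (25.8%, against 24.6%), averaging whichever clones had a value. The largest of these differences was in Slc28a2, a sodium-coupled carrier of purine nucleosides, with 0.97, 1.10 and 1.04 in lymphedema, -0.16 and 0.33 on 2 sham arrays and -0.55, -1.14 and -0.42 in normal skin. The value of sham array 3 was missing and was not imputed. With features that had 2 of 3 values per state, its difference from normal skin was 1.74 ± 0.23 (adjusted p = 0.0138, limma), beyond that of any of the 124 genes. Of the 8 genes lower in lymphedema, Slco6c1, a relative of the organic anion carriers, had -0.08 and 0.14 on lymphedema arrays 2 and 3, -0.34, 0.10 and 1.00 in sham and 1.17, 1.17 and 1.05 in normal skin, a difference from normal skin of -1.10 ± 0.33 (adjusted p = 0.115, limma). The glucose carrier Slc2a8 differed by -1.01 over whichever of its 2 clones had a value, but by -0.23 (adjusted p = 0.607, limma) with features that had 2 of 3 values per state. Slc28a3, another nucleoside carrier, had 1.55, -0.48 and -0.29 in lymphedema, -0.01 and -0.81 on sham arrays 1 and 3 and 1.67, 1.39 and 1.26 in normal skin. Its low values fell on the arrays other than the normal arrays and lymphedema array 1, the same division as in the missing values, and its difference of sham from normal skin was -1.85 ± 0.52 (adjusted p = 0.377, limma).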

How the data were processed

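Members, substrate classes and lists were chosen with earlier results of these data known. The authors extracted features with GenePix and subtracted background and normalized dyes. The deposited log2 ratios, 1 per feature and array, still hold empty cells, so the filter and imputation of the methods are not in them, and their centering is unknown. The sources differ on the dyes, and the log base is not stated. The number of columns left unused was 0.

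Signs were turned, arrays centered on their medians, and clones of a gene averaged per array, using features with a value on all 9 arrays. limma 3.58.1 (R 4.3.3; lmFit and eBayes, group only, all arrays) gave p-values adjusted over 8644 genes at 0.05. SAM used all 20 permutations of 2 states. Alternatives were other scalings, a filter of 2 of 3 values per state, the arrays of 2 states only, 2 kinds of block, 1 clone per gene, SAM and each array left out. The 19 carrier features named by several genes were not used. The code was tested on simulated data. Figures used matplotlib 3.10.9.

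Genes named are those past the threshold, the 8 largest separated differences each way per comparison, the highest and lowest ratio per class, and genes listed by role. Chosen after their values were seen: Slc28a2, Slc28a3, Slco6c1, Slc2a8, Slc30a3, Slc25a3, Slc50a1, Slc27a3, Slc6a6 and Slc38a4. Pools are the replicates.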

Additional observations from a re-analysis of the deposited data

Results flagged for a closer look

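The 3 carriers below, left out of the tests for want of a value on every array, lay higher on every measured lymphedema array than on any measured normal array. Slc28a2, the purine nucleoside carrier, differed by 1.74 between the means of lymphedema and normal skin. Slco2b1, an organic anion carrier, had 2.25 and 1.56 on lymphedema arrays 2 and 3 and 1.01, 0.79 and 0.33 on the normal arrays, a difference of 1.19 (adjusted p = 0.0602 with 2 of 3 values per state, limma). Slc30a3, a zinc carrier of vesicles, had 1.22, 0.92 and 1.02 in lymphedema and 0.41 and 0.63 on 2 normal arrays, a difference of 0.54 (adjusted p = 0.195). Another 8 such carriers lay lower on every measured lymphedema array, with Slco6c1 at -1.10 (adjusted p = 0.115, limma) as the largest difference. Of 31 carriers with 2 or more values in both states, the 3 higher made up 9.68%, against 14.3% of all such genes. The 8 lower made up 25.8%, against 24.6%. Missing values differed between the arrays, and their part in these differences was not tested.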

How the results depend on the processing

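For lymphedema against normal skin, the 2 higher and 3 lower carriers became 5 and 6 with the arrays of the 2 states only, 21 and 6 with SAM, 0 and 0 with sets of arrays that share missing values as a block (where lymphedema array 1 alone stands against the normal arrays), and 0 to 4 and 0 to 6 when each array was left out. With the replicate number as a block 1 was higher and 2 lower (over all genes 116 and 29, against 245 and 52). The numbers come from the labels, which do not say whether they pair the samples. Deviations from the state means over all genes had correlations of -0.24 to 0.28 between same-numbered arrays. Other pairs of arrays were not set beside these, so whether the numbers pair samples was not tested. The block of replicate numbers changed no carrier's call in the other comparisons. Over all genes tested, calls numbered 614 and 228 with the arrays of the 2 states only, 154 and 56 without centering, 112 and 72 after quantile normalization and 140 and 49 with 1 clone per gene. They numbered 9 to 484 and 2 to 139 when each array was left out. The share of higher among all calls was 82.49%, against 60.87% after quantile normalization, which also moved the median of all genes to -0.02. The median over the carriers was -0.0136 without centering, -0.0582 after quantile normalization and 0.0478 to 0.132 (without normal array 1) with an array left out. For sham against normal skin it was -0.00603 after quantile normalization, -0.00217 with the block of array sets and 5e-04 (without sham array 2) to 0.0871 with an array left out, and 0 to 1 carriers were lower (Slc39a4 without sham array 3, where 4 of all genes were higher and 8 lower). For lymphedema against sham skin the median of 0.0254 was -0.0153 without centering, -0.016 after quantile normalization and -0.00708 (without sham array 3) to 0.0944 (without sham array 1) with an array left out. There 0 to 1 carriers were lower (Slc31a1 without sham array 3, where 77 of all genes were higher and 19 lower). Some signs turned. In lymphedema against normal skin Slc4a1 had 0.03, and -0.034 without centering, -0.653 after scaling to 1 median absolute deviation, -0.356 after quantile normalization and -0.0752 to 0.172 with an array left out; Slc40a1 had -0.0154 to 0.313 with an array left out; Slc25a37 had -0.0801 and Slc12a2 -0.0254 after quantile normalization; and Slc20a1 had -0.135 with the block of array sets. In sham against normal skin Slc38a1 had -0.0377 (against 0.46) with 1 clone per gene, and Slc25a5 had -0.208 and Slc2a13 0.24 (against -1.03) with the block of array sets. The causes were not tested. The 5 genes that passed kept their sign under all 18 alternatives and their call under 12 (Slc25a45), 11 (Slc7a3 and Slc2a13), 10 (Slc9a3r2) and 8 (Slc22a4). Signal over background was not analysed here, so the reliability of dim features is unknown.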
